A study of Saccharomyces cerevisiae with 6 samples.

Results

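The wild-type arm of a yeast expression study is described here: the transcriptome of 3 log-phase cultures in rich medium, read on 3 of the 6 arrays in the series. The arrays were chosen by their titles, and the 3 arrays of the strain deleted for RPH1 were not used. All 3 cultures were Saccharomyces cerevisiae of the W303 background, a laboratory strain, with the genotype wild-type. They grew in YPD, a glucose-based rich medium, at 30 °C to log phase, and the labels name no drug or stress. The arrays were Affymetrix expression arrays, hybridised with biotinylated cRNA made from 10 µg of RNA per culture. The samples are described as biological, but neither the labels nor the design text gives the days of growth, so the spread given below is that between these 3 arrays.

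The array carries 10928 probe sets, each a group of short oligonucleotides for one transcript. Of these, 5498 were annotated to 1 S. cerevisiae gene, and they cover 5449 genes. A further 1746 probe sets belong to the fission yeast Schizosaccharomyces pombe, an organism not sampled here, and they served as the measure of background. Genes were ranked by the mean log2 signal over the 3 arrays, and a percentile is the share of the 5449 genes with the same or a lower mean. With 1 group of 3 arrays no test was possible, so all values are descriptions. A probe set's signal depends on its probes as well as on its transcript, so the ranks order signals and not transcript numbers. Fewer cells of a type and less RNA per cell cannot be told apart in such bulk samples.

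Budding yeast growing on glucose ferments it to ethanol even in air. In this state the cell spends much of its transcription on ribosomal proteins and glycolytic enzymes, which support rapid division. Glucose represses genes for other sugars, for growth on ethanol and for fatty acid breakdown, and genes for meiosis and spore formation stay silent in haploid cells. Haploid cells are of mating type a or alpha, and each type transcribes its own pheromone and receptor genes.

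The label was checked first. RPH1, the gene deleted in the other strain, encodes a JmjC-domain histone demethylase and repressor. It read 305, 362 and 385 on the arrays of wild type 1, 2 and 3, the order of every set of 3 signals below, and lay at percentile 29.9. Of the 5 markers of log phase on glucose, 4 lay in the brightest 10% of genes (10% of all genes by definition). They were the glucose transporter HXT3 at 5549, 4759 and 4822, the pyruvate decarboxylase PDC1 at 7374, 6004 and 5191, the alcohol dehydrogenase ADH1 at 6670.2, 5917 and 5177 and the pyruvate kinase CDC19 at 7819, 6485 and 5587. The other marker, the low-affinity glucose transporter HXT1, read 2945, 2589.8 and 2768. None of the 8 markers of derepressed or stationary cells lay in the brightest 10%, and 4 lay in the dimmest 10% (9.98% of all genes by definition). They were not uniformly dim, since the stress gene HSP12, given below, read above the median gene. All 5 markers of sporulating cells and all 3 of galactose-grown cells lay in the dimmest 10%. The 2 markers of phosphate-starved cells were not dim: PHO84 lay in the brightest 10% and PHO5 at percentile 88.9, with summed signals of 6537, 9109 and 8400.1.

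Wild type 1 stood apart from wild type 2 and 3. Pearson's r of log2 signals was taken across all 5449 genes, those at or below background included. It was 0.983 between wild type 1 and 2, 0.975 between 1 and 3, and 0.990 between 2 and 3. Genes are not independent replicates, so these values are descriptions. Its sample code in the labels has another form than those of the other wild-type arrays. Its control RNA readings also differed: a spiked dap control read 0.0959, 52.5 and 42.7, and a spiked bioC control read 153, 457 and 453. The bioD control was closer at 2033, 2102 and 2284. A probe set for the 3′ part of 25S ribosomal RNA read 203, 76.2 and 61.2. The ratio of the 3′ to the 5′ probe set, taken for 6 control genes, did not set wild type 1 apart in one direction. It was highest there for SPT15, for actin at 1.20, 1.11 and 1.02 and for WBP1 at 1.79, 1.53 and 1.55. It was 0.935, 1.06 and 1.16 for RIP1, and highest on wild type 2 for TDH1 and SRB4. Other controls with both probe sets were left out of these ratios. For EAF5 the 3′ probe set read 399, 355 and 366 and the 5′ probe set 175, 254 and 260. For 25S ribosomal RNA the 5′ probe set read 80.6, 79.2 and 58.5, so in both the 3′ end was relatively highest on wild type 1. URA3 went the other way, at 873, 854 and 886 for 3′ and 1848, 1528 and 1637 for 5′, as did small-subunit ribosomal RNA. The part of these differences in the results was not tested. Results on variation are therefore also given without wild type 1.

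Nearly all genes gave signals above background. The background level was the value that 95% of fission yeast probe sets did not exceed in mean log2 signal. It corresponds to a signal of 9.48, and 60 genes, or 1.1% of 5449, had means at or below it. The median gene read 600.9, and mean signals ran up to 8352. The brightest 10% began at a signal of 2891 and held 545 genes, the middle band, between the 40th and 60th percentiles, ran from 464.7 to 802.5, and the dimmest 10% ended at 117.8. The fission yeast probe sets themselves had a median of 2.33 and a highest mean of 67.2. Between these extremes a low reading is ambiguous, since 359 genes had means below the brightest fission yeast probe set.

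**Figure D1:**
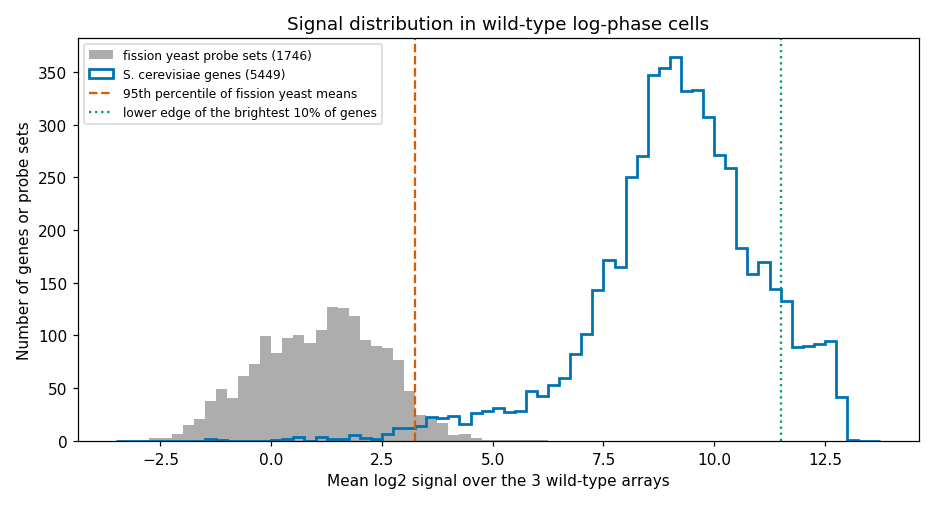
Distribution of mean log2 signal over the 3 wild-type arrays for 5449 S. cerevisiae genes (blue line) and 1746 fission yeast probe sets (grey), as numbers per bin. The dashed line marks the background level at 3.25 and the dotted line the lower edge of the brightest 10% at 11.50; 60 genes lie at or left of the dashed line.

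The brightest genes were those of translation. Of the 25 genes with the highest means, 18 encode proteins of the cytosolic ribosome, and of the 100 brightest 68 do. The highest mean belonged to YEF3, the fungal translation elongation factor 3, at 9032, 8443 and 7641. RPS8A of the small ribosomal subunit followed at 8979, 7674 and 7815. SSB1, an Hsp70 chaperone that binds nascent chains at the ribosome, read 9284, 7705 and 7333. Its probe set is marked as able to cross-hybridise, so its close copy SSB2 may contribute. EFT2, elongation factor 2, read 8674, 7128 and 6494 on a probe set with the same mark. The 7 non-ribosomal genes among the 25 also included the glycolytic TPI1 at 8619, 7362 and 6254 and ENO2 at 7999, 7355 and 6518. The last pair were CUP1-1, the copper metallothionein, at 9183, 7512 and 7242, and YAR010C, the Gag reading frame of a Ty1 retrotransposon, at 8105, 7315 and 6489. Both of these are repeated in the genome and were read by cross-hybridising probe sets.

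Ribosomal protein genes formed a narrow band at the top of the range. All 127 genes listed were measured, 125 of them lay in the brightest 10%, and the median member lay at percentile 98.3. A mean signal over 5000 was reached by 114 of them, out of 210 such genes on the array. The large-subunit gene RPL3 read 9115, 7683 and 7030.5, RPL29 read 8312, 7657 and 7747, and RPS31, which encodes a ubiquitin fused to a small-subunit protein, read 9379, 7495 and 6441. The ranges of these 3 genes over the arrays overlapped, so their order is within the spread. The exceptions were RPL15B, a paralog copy at 657, 681 and 706, and RPL41A, which encodes a very short peptide, at 890.0, 691 and 2211. RPL41A was read by a probe set that may cross-hybridise, and 22 of the 127 genes were read by such probe sets. RPL15A, the other copy of the RPL15 pair, named after its value was seen, read 6789.6, 5479.6 and 5332. RPL22B, also seen first, was next above the exceptions at 3325, 2769 and 3157. The median over the 127 genes was 6975 on wild type 1, 5896 on wild type 2 and 5767 on wild type 3, so wild type 1 read highest.

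Other parts of the protein synthesis machinery lay lower. Of 37 translation factor genes 23 lay in the brightest 10%, with a median at percentile 92.6. The dim members were specialised paralogs: ANB1, the anaerobic form of factor eIF5A, read 264, 238 and 289, and HEF3, a paralog of YEF3, read 94.6, 104 and 134. Aminoacyl-tRNA synthetases had 16 of 20 genes in the brightest 10%. Glutamyl-tRNA synthetase GUS1 read 5644, 4669.5 and 4411, and GRS2, the second gene for the glycine enzyme, read 251, 223 and 215. Ribosome biogenesis factors were spread more widely, with 12 of 111 in the brightest 10% and a median at percentile 76.6. The methyltransferase of small nucleolar RNPs, NOP1, read 5632, 4943 and 4465, while SSF2 of large-subunit assembly read 302, 312 and 354. RNA polymerases lay between, with medians at percentile 80.6 for the 11 subunits of polymerase II and percentile 80.1 for 20 subunits of polymerases I and III. Within polymerase II, RPB8 read 4454, 3610.2 and 3308 and the largest subunit, RPO21, read 1677, 1758 and 1517. RPB9 was the dimmest of them at 1071, 1009 and 967.

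**Figure D2:**
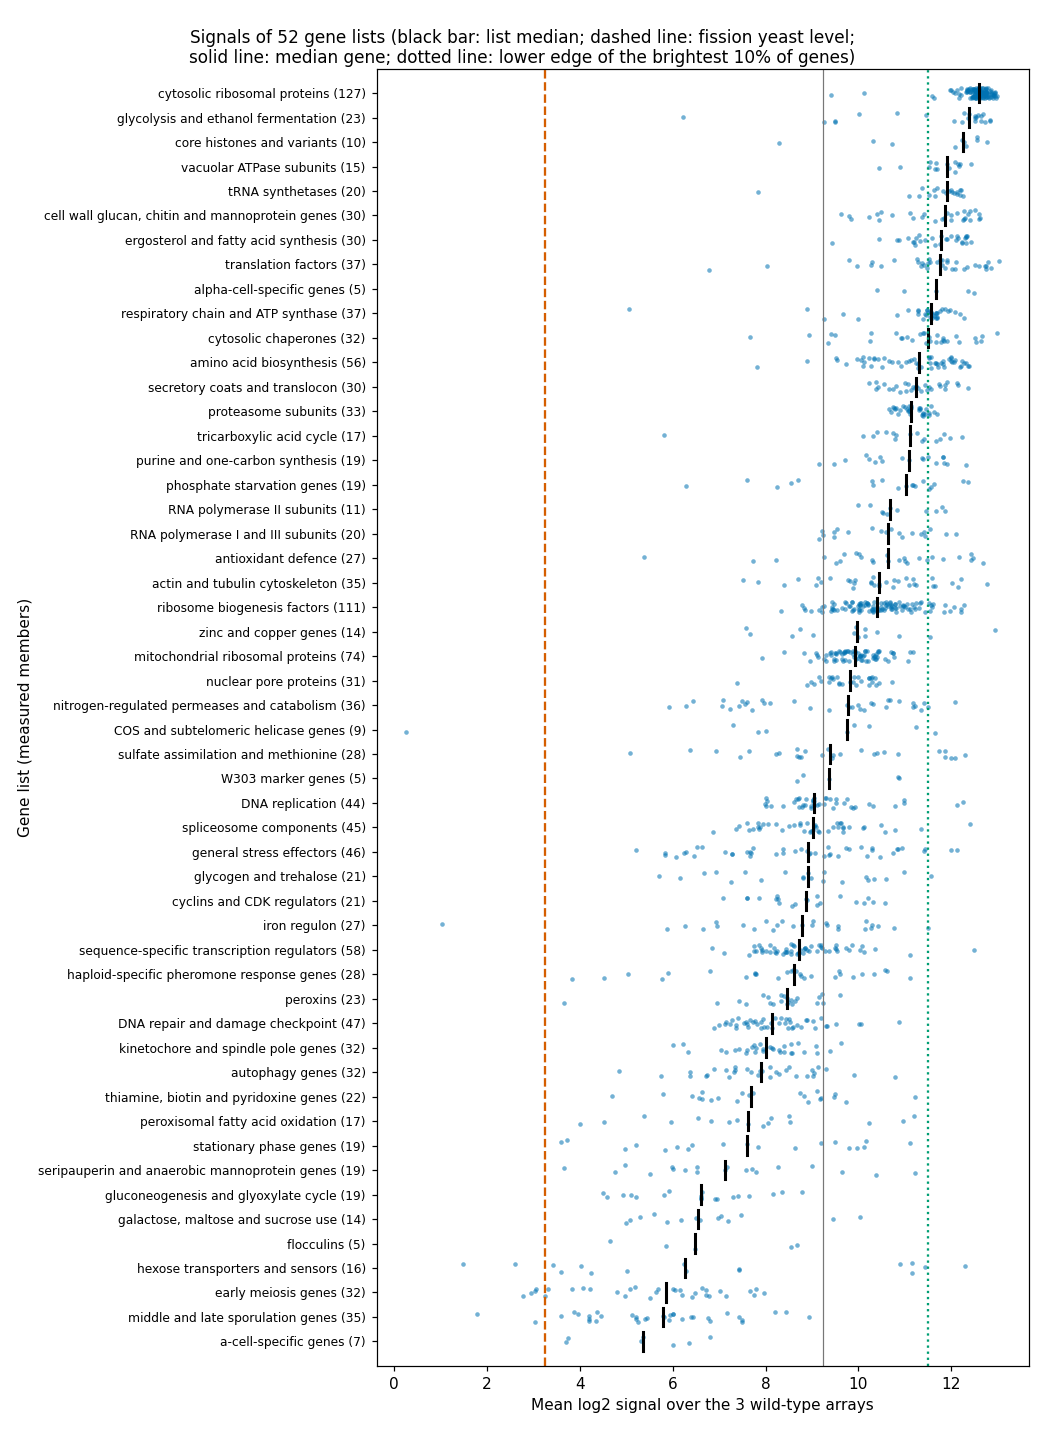
Mean log2 signal over the 3 wild-type arrays for each measured member of 52 gene lists (blue points, number of members in parentheses), ordered by the list's median percentile. Black bars are list medians; 11 lists have a median above the 90th percentile and 7 have one below the 10th.

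Glycolysis and ethanol fermentation was the second brightest list. Of 23 genes 16 lay in the brightest 10%, and the median member lay at percentile 96.8. Triose phosphate isomerase TPI1 and enolase ENO2, given above, were its highest. A further 3 genes of the lower part of the pathway were also bright, and they were chosen after their values were seen: phosphoglycerate kinase PGK1 read 8114, 6614 and 5884, phosphoglycerate mutase GPM1 read 7814, 6168 and 5540.0, and the glyceraldehyde phosphate dehydrogenase TDH3 read 6388, 5331 and 4424. All of these read highest on wild type 1 and lowest on wild type 3. The dimmest members were PYK2, a pyruvate kinase known to be repressed by glucose, at 583, 628 and 644, and PDC6, a minor pyruvate decarboxylase, at 111, 58.3 and 64.8.

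Mitochondrial respiration was bright as well. The respiratory chain and ATP synthase list had 22 of 37 genes in the brightest 10%, with a median at percentile 90.8. ATP1, the alpha subunit of ATP synthase, read 5460.4, 5062 and 4438, and ATP2, the beta subunit, read 5090.4, 5207 and 3930.2. CYC7, the minor form of cytochrome c, read 580.1, 422 and 445, and NDE2, an external NADH dehydrogenase, read 34.7, 36.6 and 29.4. Tricarboxylic acid cycle genes had a median at percentile 85.4, with aconitase ACO1 at 5074, 4843 and 4473 and the minor citrate synthase CIT3 at 55.7, 56.3 and 57.6. Genes of the mitochondrial ribosome lay far below their cytosolic counterparts: none of 74 was in the brightest 10%, and the median lay at percentile 66.4. The highest of them, MRPS12, read 2759, 2205 and 2057.

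Lists for the cell surface, membranes and protein handling filled most of the other bright ranks. The vacuolar ATPase, which acidifies the vacuole, had 13 of 15 subunits in the brightest 10%, with VMA3 highest at 6211, 5271 and 5020.4 and STV1, the Golgi form of a subunit, lowest at 1525, 1418 and 1275. Cell wall genes had 18 of 30, led by the mannoprotein SED1 at 6967, 6277 and 5826 and by ZEO1 at 6109, 6184 and 6316. The septum chitin synthase CHS2 was their lowest at 769, 806 and 815. Ergosterol and fatty acid synthesis had 18 of 30, with farnesyl diphosphate synthase ERG20 at 5794, 5587 and 5234 and HMG2, the minor HMG-CoA reductase, at 699.8, 715 and 663. Among cytosolic chaperones 16 of 32 were that bright. The constitutive Hsp70 SSA2 read 7507, 6560.1 and 5536, whereas its heat-inducible relatives SSA4 and SSA3 read 670.0, 405 and 428 and 261, 173 and 184. Proteasome subunits occupied a narrow range, from PRE6 at 3335, 3425 and 3187 down to RPT2 at 1458, 1659.9 and 1759.9, and the lowest of the 33 lay at percentile 80.2. The secretory list spread further, with its lowest member at percentile 72.7, from the lumenal chaperone KAR2 at 5561, 5311 and 5058 to SRP72 of the signal recognition particle at 1170.4, 1204 and 1206.

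Histone genes were bright, and their variants were not. The 7 core histone genes measured all lay in the brightest 10%. The H2A gene HTA1 read 7380.1, 6788 and 6975 and HTA2 read 6264, 6131 and 5681. The H3 genes HHT1 and HHT2 read 4933, 5065 and 4944 and 5823, 6036 and 6138, and the H4 gene HHF1 read 4821, 5184 and 5333. The H2B genes HTB1 and HTB2 read 4901, 4485 and 5195 and 3682, 4497 and 4871. The linker histone HHO1 read 1867, 1765 and 1487, the H2A.Z gene HTZ1 read 1447, 1209 and 1193, and CSE4, the centromeric H3, read 303.5, 322 and 319.9. HTA2 and HHF1 were read by cross-hybridising probe sets.

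Biosynthetic and nutrient genes ranged widely. Amino acid biosynthesis had 27 of 56 genes in the brightest 10%, although rich medium supplies amino acids. HOM2, of the threonine and methionine branch, read 5752, 5323 and 4947, and the glutamate dehydrogenase GDH1 read 5287, 5496 and 4936, against 187, 252 and 247 for its paralog GDH3. GCN4, the activator of these pathways, which is known to be held back at translation, read 6111, 5807 and 5476 and was the brightest of 58 sequence-specific regulators. Those regulators had a median at percentile 36.2, and the lowest was the sterol regulator UPC2 at 119, 99.7 and 129. Among phosphate genes, the polyphosphate synthase subunit VTC1 read 5345, 5307 and 5091 and the high-affinity phosphate transporter PHO84 read 5356, 4969 and 4465. The median of this list of 19 lay at percentile 84.6. Iron genes lay lower, at a median percentile of 38.2: the reductase FRE1 read 2019, 3678 and 3259.5, the cell wall siderophore protein FIT1 read 72.5, 54.98 and 50.4, and the reductase homologue FRE5 was not above background on any array. In the nitrogen list the asparaginase ASP3-1, a repeated gene, read 3869.6, 4672 and 4434 on a cross-hybridising probe set. DUR3, the urea transporter known to be repressed by good nitrogen sources, read 63.9999, 62.3 and 55.2.

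Genes at the middle of the range had varied roles. The genes nearest the median were DCD1, a dCMP deaminase, at 665, 594 and 550.0; AQY2, an aquaporin gene, at 392, 677 and 818; MVB12 of the ESCRT-I complex at 509.6, 585 and 729; the vacuolar syntaxin VAM3 at 748, 594 and 489; and the rRNA methyltransferase BMT5 at 615, 564 and 627. AQY2 differed most between arrays. DNA replication genes had a median at percentile 45.1, and 18 of 44 lay in the middle band. The ribonucleotide reductase subunits RNR4 and RNR2 were the exceptions at 4964, 5176 and 4456 and 4805, 4478 and 4154, while the helicase loader CDC6 and the helicase subunit CDC45 read 210.2, 296 and 276 and 230.3, 272 and 264. Spliceosome genes had a similar median, at percentile 44.4. SNU13, which is shared with the rRNA processing machinery, read 6355, 5175 and 4827, and PRP18 read 113, 119 and 121. Several nuclear lists centred outside the middle band. Nuclear pore genes centred on percentile 64.5, DNA repair genes on 24.04, and kinetochore and spindle pole genes on 21.9. Cyclins and their regulators centred on 40.4, just inside the lower edge of the band. The G1 cyclin CLN3 read 1807, 1389 and 1409, and the S-phase cyclin CLB6 read 133, 153 and 124. RAD23, of nucleotide excision repair, was the highest repair gene at 1964, 1881 and 1834, and RAD55, of recombination, was the lowest at 114, 114 and 128.

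Genes of other carbon sources and of fat breakdown were dim. The 14 galactose, maltose and sucrose genes had a median at percentile 8.32, and 8 lay in the dimmest 10%. The galactokinase GAL1 read 71.03, 74.5 and 71.7, the epimerase GAL10 read 52.9, 34.1 and 32.9, and the transporter GAL2 read 34.01, 27.7 and 34.4. GAL80, the repressor of that pathway, was brighter at 1054, 1003 and 1078, as was the invertase gene SUC2 at 752, 681 and 659. Gluconeogenesis and glyoxylate genes had 11 of 19 members in the dimmest 10%. Fructose bisphosphatase FBP1 read 20.6, 37.8 and 17.9, isocitrate lyase ICL1 read 97.3, 98.7 and 96.96, and the ethanol-oxidising ADH2 read 107, 152 and 109. In peroxisomal oxidation, the acyl-CoA oxidase POX1 and the thiolase POT1 read 16.2, 27.8 and 26.5 and 14.04, 17.4 and 17.02, while the fatty acid activating enzyme FAA1 read 2181, 2544 and 2309.

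Hexose transporters spanned the whole scale. HXT3 and HXT1, given above, were the highest of 16, and 9 lay in the dimmest 10%. HXT5, known from slow growth, read 80.8, 83.4 and 63.4, and HXT11 read 21.3, 37.4 and 42.1. HXT13 and HXT15 were not above background on any array, at 3.36, 6.65 and 0.974 and 5.11, 8.22 and 5.42. Flocculin genes were also low: FLO1 read 17.3, 25.1 and 37.2, FLO10 read 94.2, 88.9 and 85.4 and FLO11 read 54.3, 52.1 and 67.5, with FLO9 at 436, 402 and 386 on a cross-hybridising probe set and their activator FLO8 at 340.4, 370.3 and 408. Seripauperin and anaerobic mannoprotein genes ran from PAU23 at 2166, 2426 and 2536 down to DAN1, an anaerobic cell wall gene, at 8.26, 14.8 and 16.2, and 11 of the 19 probe sets may cross-hybridise.

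The cells had the pattern of alpha cells. The pheromone genes MF(ALPHA)1 and MF(ALPHA)2 read 5970.4, 5813 and 5507 and 5892, 5555 and 4550.4. AFB1, an a-factor barrier protein, read 3328, 3281 and 3254, the a-factor receptor STE3 read 1951, 2106 and 2019, and the alpha-agglutinin SAG1 read 1697, 1352 and 1102. All 7 a-specific genes lay in the dimmest 10%, with summed signals of 327, 403 and 382 against 18838, 18107 and 16433 for the 5 alpha genes. The alpha-factor receptor STE2 read 66.1, 68.1 and 60.4, the a-factor genes MFA1 and MFA2 read 27.2, 61.003 and 37.9 and 32.4, 44.9 and 47.8, and the a-factor exporter STE6 read 95.05, 126 and 119. BAR1, the protease that degrades alpha factor, read 86.3, 79.03 and 78.95. AGA2 and ASG7 read 8.79, 12.7 and 19.9 and 11.4, 11.3 and 18.5, close to background. HMRA1, named after its value was seen, was not above background on any array at 4.92, 4.802 and 0.898. HMLALPHA1, also seen first, which shares its sequence with the expressed alpha locus, read 1172, 1123 and 1075.

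Genes shared by both haploid types and induced by pheromone lay in the lower middle. The pheromone response list of 28 had a median at percentile 34.01. STE4, the beta subunit of the pheromone G protein, read 1693, 1523 and 1503, whereas FIG1 and PRM6, known as pheromone-induced genes, read 19.2, 28.8 and 21.8 and 14.3, 12.7 and 15.8. Meiotic genes were at the bottom. Of 32 early meiosis genes 26 lay in the dimmest 10%, and of 35 middle and late sporulation genes 28 did. Most were still above background on every array, 26 of the early and 31 of the middle and late genes. The kinase IME2 read 71.2, 64.8 and 86.1 and SPO11, which makes meiotic DNA breaks, read 48.4, 49.96 and 51.5. The brightest early member was UME6, the mitotic repressor of these genes, at 267, 218 and 266. MEI5 and HOP2, of meiotic recombination, were not above background on any array at 4.22, 9.27 and 8.29 and 8.68, 5.36 and 9.77. NDT80, the activator of middle sporulation genes, read 100.2, 86.2 and 146, and SPO19, of prospore membrane assembly, read 6.0005, 7.82 and 0.862.

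Stress lists differed in level, from dim stationary phase genes to bright antioxidant genes. General stress effectors had a median at percentile 41.5, with 2 of 46 in the brightest 10% and 9 in the dimmest 10%. HOR7 read 4926, 4556 and 4023 and YGP1 read 4031, 4242 and 4039, while GRE1 and SIP18, known from desiccation and osmotic stress, read 35.4, 34.8 and 40.8 and 48.99, 63.9 and 60.3. The small heat shock gene HSP12 read 1516, 1766 and 2240.2. Stationary phase genes had a median at percentile 16.1 and 8 of 19 in the dimmest 10%, with HSP30, a plasma membrane protein, highest at 3657, 1659 and 1810.2. Antioxidant genes had a median at percentile 80.1 and 7 of 27 in the brightest 10%, led by the peroxiredoxin TSA1 at 7026, 6688 and 6121 and the superoxide dismutase SOD1 at 6307, 5701 and 5141; the catalases CTT1 and CTA1 read 396, 140.0 and 173 and 46.8, 35.7 and 44.1. Autophagy genes had a median at percentile 20.2, from ATG27 at 1851, 1658 and 1787 to ATG16 at 25.9, 27.6 and 32.8.

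The 60 genes at or below background were mostly reading frames without a gene name. Such unnamed genes made up 70% of the 60, against 9.16% of all 5449 genes and 3.49% of the brightest 10%. Reading frames whose systematic name carries a letter suffix, given to frames added after the first annotation, made up 55% of the 60 and 4.57% of all genes. Genes within 15 genes of a chromosome end made up 28.3% and 6.94%. The lowest signals were those of YFR057W at 0.585, 0.381 and 0.249, YMR247W-A at 0.968, 0.372 and 0.205 and YGL262W at 0.431, 0.233 and 0.7898. COS12, a member of a subtelomeric family, read 0.568, 1.17 and 2.58, whereas its relatives COS2 and COS4 read 3715, 3166 and 2807 and 2259, 2379.5 and 2619.7 on probe sets that may cross-hybridise within the family. Just above the level stood REC114, a meiotic recombination gene, at 10.6, 8.69 and 9.39, and YBL044W at 13.7, 13.96 and 4.91. Just below it stood YOL131W at 11.04, 11.6 and 6.02 and YOR381W-A at 4.75, 9.31 and 17.2. These 4 genes were above background on some arrays only, so the boundary is not sharp.

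The marker genes of the strain background were read as well. W303 is known to carry mutant alleles of these genes, and a mutant allele can still give a transcript. URA3 read 2133, 1802 and 1717, LEU2 read 2106, 1936 and 1532, CAN1 read 622, 667 and 681, ADE2 read 548, 398 and 406 and HIS3 read 395, 428 and 408.

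Most genes differed little between the 3 cultures. Over the 5332 genes above background on every array, the median standard deviation (SD) of log2 signal was 0.133, with quartiles at 0.079 and 0.216. A range of over 2-fold between the highest and the lowest array was found in 166 genes, or 3.11%. The steadiest of the bright genes were the importin KAP123 at 3193, 3236 and 3232, cytochrome b5 (CYB5) at 3332, 3303 and 3282, RPL8A at 6899, 6767 and 6829, the tRNA-binding cofactor ARC1 at 4303, 4224 and 4235, and AFB1. Among these RPL8A was read by a cross-hybridising probe set. The spread fell with signal: the median SD was 0.25 in the dimmest of 10 equal bins of signal, 0.11 in the 9th and 0.12 in the brightest. Of the 100 most variable genes, 25 lay in the dimmest bin and none in the brightest. In 81 of the 100, wild type 1 was the array farthest from the other 2, against 57.8% of all 5332 genes. It was the high array in 27 of these and the low array in 54.

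**Figure D3:**
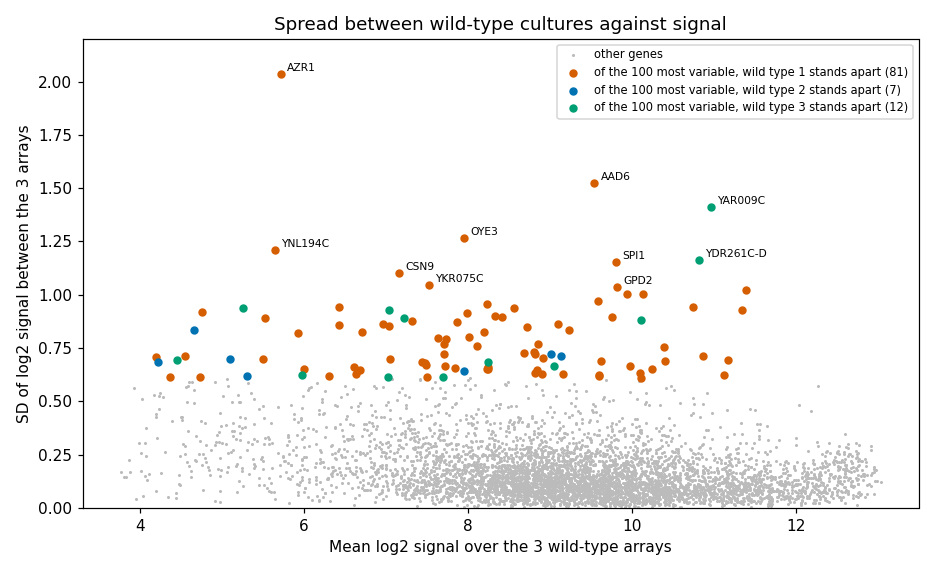
Standard deviation of log2 signal between the 3 wild-type arrays against mean log2 signal for 5332 genes above background on every array. Coloured points are the 100 most variable genes by the array that stands apart (81 for wild type 1, 7 for wild type 2, 12 for wild type 3), and the 10 most variable are named.

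Among the 30 most variable genes, 11 read high on wild type 1. The plasma membrane transporter AZR1 had the largest SD, 2.04, at 268, 25.9 and 21.2. SPI1, a cell wall protein known from stationary phase, read 2254, 561 and 568, and GPD2, a glycerol 3-phosphate dehydrogenase, read 2031, 519 and 693. RGI1, known from respiratory growth, read 2453, 655 and 874, and EGO4 read 1661, 488 and 556. The glycogen synthase GSY1 read 699.8, 244 and 234. ISF1 read 599, 159 and 282, and YNL194C, a membrane protein of the cell cortex, read 129, 37.2 and 26.3. Wild type 1 lies above both other arrays in these genes by definition, since they were grouped by it standing apart on the high side. The gap in log2 signal between wild type 2 and 3 was widest in ISF1. The other 3 were YKR075C at 409, 99.2 and 155, YJR115W at 183, 60.7 and 57.4 and YNR014W at 526, 161 and 195.

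A further 13 of the 30 read low on wild type 1. AAD6, of the aryl-alcohol dehydrogenase family, read 220.2, 1385 and 1353, and AAD4 of the same family read 1234, 3698 and 3809 on a cross-hybridising probe set. Other oxidoreductases and conjugating enzymes were among them: OYE3, an old yellow enzyme, at 90.8, 371 and 456; the methylglyoxal reductase GRE2 at 806, 2395 and 2597; and the glutathione transferase GTT2 at 439.8, 1454 and 1487. Outside the 30, the oxidative stress regulator YAP1, the most variable of 58 transcription regulators, read 509, 837 and 921. The antioxidant list was mixed: of 27 genes 15 read lowest on wild type 1 and 11 highest, against 42.8% and 41.8% of all genes. The nutrient genes of the 13 were PHO5, a secreted acid phosphatase, at 1181, 4140.0 and 3935; GIT1, a permease for glycerophosphoinositol, at 178, 557 and 541; and MEP2, an ammonium permease, at 427, 1355 and 1128. The rest were PEX27, of peroxisome division, at 160.0, 387 and 534; CSN9, of the COP9 signalosome, at 62.3, 169.6 and 279; PAU21 at 12.9999, 38.8 and 39.4; YCR102C at 79.3, 224 and 229.7; and YHL012W at 22.7, 61.2 and 70.5. These 13 were grouped by wild type 1 standing apart on the low side, so its signal lies below both others by definition.

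**Figure D4:**
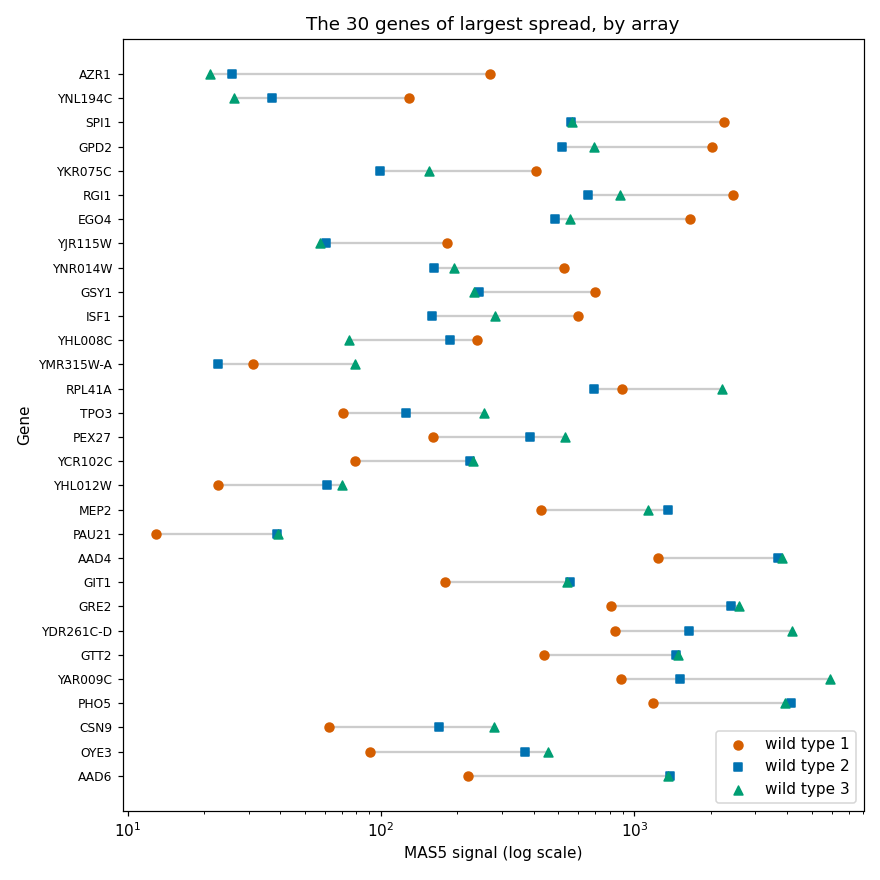
MAS5 signal (log axis) on each wild-type array for the 30 genes of largest SD, ordered by the difference of wild type 1 from the mean of 2 and 3. Wild type 1 (circles) is the array apart in 24 genes and wild type 3 (triangles) in 6, among them the Ty1 reading frame YAR009C.

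Wild type 3 stood apart in the other 6 of the 30. YAR009C and YDR261C-D, reading frames of Ty1 retrotransposons, read 885, 1508 and 5905 and 839.5, 1648 and 4183. Both probe sets may cross-hybridise among Ty copies, and the Gag frame YAR010C named above did not follow them. RPL41A also read highest on wild type 3, as did the polyamine exporter TPO3 at 70.8, 126 and 255 and YMR315W-A at 31.1, 22.7 and 79.3. YHL008C read lowest there at 239, 188 and 74.4. These 6 genes were also over 2-fold apart between wild type 2 and 3, among 15 genes in all. The 15 were mixed: 8 had a mean signal under 100, 3 were read by cross-hybridising probe sets, 8 read higher on wild type 3 and 7 lower. Without wild type 1, the median SD was 0.0717 and the 100 most variable genes had 31 in common with those found on all 3 arrays. The ranking of variable genes therefore rests largely on wild type 1.

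Whole lists also shifted on wild type 1. The shift is the median over members of the log2 difference of wild type 1 from the mean of wild type 2 and 3, and it was 0.00 over all genes. Stationary phase genes shifted by 0.51, and 11 of 17 read highest on wild type 1 (41.8% of all genes did). Besides SPI1, RGI1 and HSP30, these included SPG4 at 106, 59.98 and 49.4, but SPG3 at 774, 1364 and 1442 and SNZ1, of pyridoxine synthesis, at 416, 627 and 761 read lowest there. Their markers were mixed as a set: of the 8 markers of derepressed or stationary cells, 2 read highest on wild type 1, and their summed signals were 2508, 2989 and 3481. HSP12, given above, made up most of each sum and SNZ1 was next, so the rise in the sums does not describe the other markers. Reserve carbohydrate genes shifted by 0.19, with 13 of 21 highest on wild type 1. The glycogen branching enzyme GLC3, the phosphoglucomutase PGM2 and the trehalose synthase subunit TSL1, named after their values were seen, read 1174, 441 and 422, 747, 361 and 338 and 1224, 653 and 655. General stress effectors shifted by 0.16, with 25 of 46 highest. Catalase CTT1, given above, was among these, as was the small heat shock gene HSP26, seen first, at 929, 517 and 565.

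Glycolytic and ribosomal genes shifted upward on wild type 1 by 0.38 and 0.25, and 20 of 23 and 115 of 127 read highest there. These shifts depend on the scaling: after quantile normalization of the 3 arrays they were 0.13 and 0.03. Quantile normalization makes the distributions of the arrays equal, so it takes out a difference shared by all bright genes. Upward shifts were not particular to the lists named so far. Vacuolar ATPase genes shifted by 0.16, with 11 of 15 highest on wild type 1, and tRNA synthetases by 0.10, with 16 of 20. After quantile normalization these shifts were 0.09 and 0.07. The 5 marker genes of the strain background shifted by 0.28, with 3 highest.

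Several nutrient lists read lower on wild type 1. Sulfate assimilation and methionine genes shifted by -0.45, and 23 of 28 read lowest there (42.8% of all genes did). The sulfate permease SUL2 read 106, 248 and 298. Along the pathway, ATP sulfurylase MET3, adenylylsulfate kinase MET14 and the sulfite reductase subunit MET10, named after their values were seen, read 451, 815 and 914, 880.1, 1539.6 and 1864 and 463, 893 and 1168. CYS4 and CYS3, which make cysteine from homocysteine, did not share the shift, at 4855, 5199.9 and 4969.9 and 4397, 4526 and 4075. The list of phosphate starvation genes shifted by -0.37, with 12 of 19 lowest. Besides PHO5 and GIT1 these included the sodium-phosphate transporter PHO89 at 180.3, 359 and 428 and SPL2 at 940.3, 1849 and 1793, both seen first. They also included CTF19, a kinetochore gene on this list, at 140, 224 and 229. PHO84 read highest on wild type 1. Nitrogen genes shifted by -0.14, with 22 of 36 lowest. MEP2 was the most variable, and the general amino acid permease GAP1 and the regulator DAL80, seen first, read 1325, 3138 and 2954 and 76.05, 174 and 178. Iron genes shifted by -0.16, with 16 of 26 lowest. Not all nutrient lists moved this way: zinc and copper genes shifted by 0.09 and thiamine, biotin and pyridoxine genes by 0.08. Quantile normalization left the sulfate shift at -0.42 and the phosphate shift at -0.35.

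**Figure D5:**
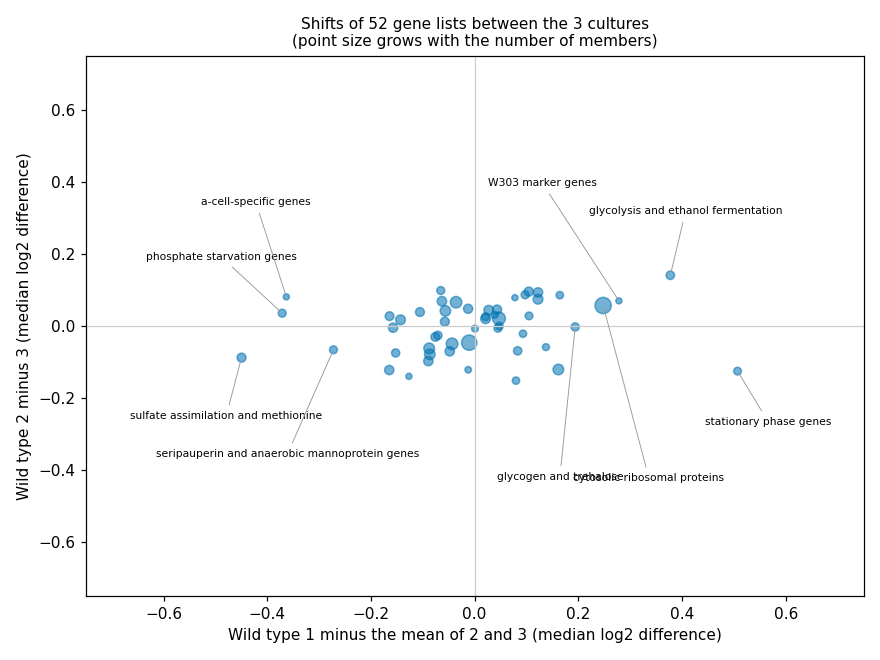
Median log2 difference of wild type 1 from the mean of wild type 2 and 3 (horizontal) against that of wild type 2 from wild type 3 (vertical) for 52 gene lists, over members above background on every array. Shifts run from -0.45 for sulfate genes to 0.51 for stationary phase genes along the horizontal axis and stay within -0.15 and 0.14 along the vertical axis.

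Lists outside nutrient supply also shifted downward on wild type 1. The a-specific genes shifted by -0.36, but 5 of the 7 were above background on every array and all were dim. Seripauperin and anaerobic mannoprotein genes shifted by -0.27, which became -0.04 without the probe sets that may cross-hybridise. Nuclear pore genes shifted by -0.16 and cyclins by -0.15, with 22 of 31 and 14 of 21 lowest on wild type 1. In these lists NUP188 read 562, 802 and 981 and SWI4, the G1 transcription factor, read 134, 218 and 252. The list of core histones and variants shifted by 0.00 as deposited and by -0.13 after quantile normalization, and the respiratory chain shifted by 0.02. Between wild type 2 and 3 the list medians were small, from -0.15 for the galactose, maltose and sucrose genes to 0.14 for glycolysis. The control RNA readings that set wild type 1 apart are given above, and their part in these shifts was not tested.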

How the data were processed

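Log-phase wild-type cultures were read on 3 Affymetrix arrays. The deposited values are probe set signal intensities on a linear scale, made by the authors with MAS5, as the submitters' processing notes name it (version and scaling target: not given in the sources used here). On each array the 2% trimmed mean was 500.2, so the values were used as deposited, after log2.

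Probe sets were matched to 1 gene each through the platform annotation and RefSeq gene table (assembly R64), which served for names and gene order only. For the 47 genes with several probe sets the highest mean was kept, and 114 kept genes were read by probe sets marked _x_at or _s_at, which may cross-hybridise. Background was the 95th percentile of the means of 1746 fission yeast probe sets. Spread was the SD of log2 signal over genes above each array's own such percentile on all 3 arrays (9.71, 12.7 and 12.1 as signals). The number of arrays limits precision. Python 3.11.15, pandas 2.3.3 and matplotlib 3.10.9 were used, and the script was tested on simulated data.

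The members and the 52 gene lists were chosen with earlier results of these data known. By rule, the genes named are RPH1, the markers, the 25 highest, the 5 nearest the median, the 12 lowest, 2 on each side of the background level, the 30 of largest SD, the 5 steadiest of the brightest 10%, and in each list the 2 highest, 2 lowest and most variable members, with all members of lists of 12 or fewer. The text gives a selection of these and says where a gene was named after its value was seen. Of 1623 list entries 1570 were measured. Alternatives covered scaling, choice of probe set, cross-hybridising probe sets, the background percentile, low signals and each array left out. Deletion arrays were not used. A planned search of promoters for motifs was not run, because no promoter sequences were used here.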

Additional observations from a re-analysis of the deposited data

Results flagged for a closer look

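Probe sets outside the gene annotation carried signal. Of 3470 probe sets with no gene in the annotation used, 404 (11.6%) had means above the background level, which is exceeded by 5% of fission yeast probe sets by construction. Of these, 11 reached the brightest 10% of genes, and the brightest read 6678. They have no gene name here and entered no count above. Of 47 probe sets that the array's names mark as reporters, 10 read above the same level, with the brightest at 3699. The source of these signals was not tested.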

How the results depend on the processing

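With the 99th percentile of fission yeast means as background, 131 genes were at or below it in place of 60. The other settings gave 41 to 73, with 55 to 73 when an array was left out. Adding an offset of 32 before log2 cut the genes of over 2-fold range from 166 to 93. Leaving out an array gave 15 without wild type 1, 136 without wild type 2 and 86 without wild type 3, where fewer arrays are compared. The median SD was 0.0717 without wild type 1 and up to 0.147 without another array, against 0.133. Without any filter on low signals, 54 of the 100 most variable genes were shared with the main 100, and wild type 1 was the array apart in 59; over the other settings it was apart in 80 to 90. Lists with a median above the 90th percentile numbered 10 or 11 in every setting. Medians of lists moved most without cross-hybridising probe sets, by 42.6 percentile points for the COS genes. List shifts on wild type 1 named above kept their sign under every setting of scaling, probe sets, background and filters, apart from that of core histones and variants, which ran from -0.13 with quantile normalization to 0.04 with median centring. The respiratory chain shift ran from 0.00 to 0.06. Sizes moved more: with the offset of 32 the stationary phase shift fell from 0.51 to 0.36 and that of general stress effectors from 0.16 to 0.11. No paired analysis was possible because the deletion arrays that share the replicate numbers were not used, and no test was made. The motif alternatives were not run. Genes near background have only a bound, so their order is not measured.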

Other observations

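Several gene groups outside the patterns above had their own ranks. Actin and tubulin genes had a median at percentile 77.1, with ACT1, actin itself, at 8263, 6879 and 6010.3 and cofilin COF1 at 5119.6, 4769 and 4469. The formin BNR1 and LAS17, which activates actin assembly, were their lowest at 141, 246 and 348 and 199.7, 183 and 169. Purine and one-carbon genes had a median at percentile 85.3: GMP synthase GUA1 read 5972, 4917 and 4580.3, and GCV2 of glycine cleavage, the most variable member, read 898, 1763 and 1813. Zinc and copper genes ranged from CUP1-1, given above, and the copper transporter CTR1 at 2281, 3743 and 3175 to CTR3 at 193, 187 and 190.3 and the zinc regulator ZAP1 at 154, 224 and 241.

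Vitamin genes had a low median. The 22 thiamine, biotin and pyridoxine genes had a median at percentile 17.4, and 7 lay in the dimmest 10%. They ran from the thiamine-repressible phosphatase PHO3 at 2635, 2304 and 2273 down to the biotin pathway transporter BIO5 at 19.8, 31.1 and 27.9. Peroxin genes, which build peroxisomes, had a median at percentile 30.1. PEX25 read 743, 820.0 and 783, and PEX18, an import co-receptor, was at or near background at 16.7, 11.8 and 10.1. Of the 100 most variable genes, 5 pairs were direct neighbours on a chromosome, among them the pair GRE2 and FRE7 and the pair YPK2 and PGM2. Such pairs were not counted in other sets of 100 genes, so the number cannot be read as many or few. In 3 of the 5 pairs the same array stood apart on the same side. YPK2 and PGM2 were not among these, at 846, 312 and 523 and 747, 361 and 338, although both read highest on wild type 1.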
